A study of Mus musculus with 12 samples.

Results

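Naive CD4+ T cells from mouse spleen were compared between wild-type mice (C57BL/6J) and mice of the strain C57BL/6J-Ets1-SE-KO, which by its name and the sample titles lacks a super-enhancer of Ets1. The members are the 4 naive libraries of the 12 ATAC-seq libraries in the series, 2 of each genotype. Per the titles the 2 libraries of a genotype are technical replicates of 1 biological sample, so their spread says nothing about differences between animals, and the labels give neither the age nor the number of the mice, nor the background of the knockout line beyond the strain name. Per the labels' protocols, red cells were lysed, naive cells were enriched with negative selection beads, which deplete other cells instead of binding the wanted ones, and were used without culture. A purity check by flow cytometry is named after the polarization steps, without values. The remaining 8 libraries are of Th1 and Th2 cells of the same genotypes after 6 days of polarization in culture, and they serve here only to look up regions found in the naive cells. Of those, 2 are titled Th1 but have Th2 cells as their source, and they were taken as Th2 knockout.

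ATAC-seq marks open chromatin, where the Tn5 transposase can reach the DNA, and each deposited file lists the peaks called in 1 library. Overlapping peaks of the 4 naive lists on chromosomes 1 to 19 were merged into 65259 regions, against 107713 when all 12 lists were merged. A region is called lost if it had a peak in both wild-type and in neither knockout library, and gained in the reverse case. It is strong if its best peak stood at or above percentile 50 of the −log10 q-value within both lists that held it. Regions with a peak in all 4 libraries are called common. They were ranked by their best −log10 q-value within each library, over the same 30206 regions each time, and are called lower or higher if both knockout percentiles lay beyond both wild-type percentiles with at least 20 points between the means. With 1 biological sample per genotype no test of the genotype exists. An exact permutation of 2 libraries against 2 could not go below a p of 0.333, so all values below describe these libraries.

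Ets1 encodes a transcription factor of the ETS family, which binds DNA at a GGAA core and acts together with RUNX factors at many T cell enhancers. Loss of Ets1 is known to impair T cell development and T cell survival. Super-enhancers are clusters of enhancers that lie near genes of cell identity. Naive CD4+ T cells keep open the chromatin of receptor signalling, homing and quiescence genes, and have not yet opened most cytokine loci.

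Promoters show both kinds of change, and 6 are printed here because they carry the 2 motifs discussed below. Each is the stretch of 250 bases before the start in the RefSeq promoter table (GRCm38.p6), 5′ to 3′ on the gene's strand. Capitals mark the ETS motif AGGAAGT in Lck, Il7r, Cd3d and Cd79a. In Hbb-bs and Epb42 they mark AGATAAG, known as a site of GATA factors. Both motifs were sought on either strand, so that the reverse complement is in capitals in some. The first set belongs to T cell genes whose promoter region was lost (Lck, chr4:129573642-129573891, minus strand) or lower in the knockout (Il7r, chr15:9529877-9530126, minus strand, and Cd3d, chr9:44981536-44981785, plus strand).
Lck: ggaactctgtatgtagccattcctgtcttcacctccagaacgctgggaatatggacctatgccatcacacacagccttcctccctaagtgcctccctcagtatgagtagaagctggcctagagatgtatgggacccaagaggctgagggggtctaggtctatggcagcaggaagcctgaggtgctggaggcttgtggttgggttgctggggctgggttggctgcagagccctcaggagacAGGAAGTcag
Il7r: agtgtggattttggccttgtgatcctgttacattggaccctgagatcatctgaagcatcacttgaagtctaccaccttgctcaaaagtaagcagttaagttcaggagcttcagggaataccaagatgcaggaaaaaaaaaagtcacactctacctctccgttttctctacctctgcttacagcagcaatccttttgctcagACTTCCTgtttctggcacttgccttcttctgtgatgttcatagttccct
Cd3d: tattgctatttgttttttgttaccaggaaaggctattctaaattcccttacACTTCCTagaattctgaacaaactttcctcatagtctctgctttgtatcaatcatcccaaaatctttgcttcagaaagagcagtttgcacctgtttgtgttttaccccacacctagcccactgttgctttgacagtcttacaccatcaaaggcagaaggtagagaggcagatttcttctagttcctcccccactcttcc
The second set was gained and belongs to genes of red cells (Hbb-bs, chr7:103827929-103828178, minus strand, and Epb42, chr2:121036878-121037127, minus strand) and B cells (Cd79a, chr7:24897247-24897496, plus strand).
Hbb-bs: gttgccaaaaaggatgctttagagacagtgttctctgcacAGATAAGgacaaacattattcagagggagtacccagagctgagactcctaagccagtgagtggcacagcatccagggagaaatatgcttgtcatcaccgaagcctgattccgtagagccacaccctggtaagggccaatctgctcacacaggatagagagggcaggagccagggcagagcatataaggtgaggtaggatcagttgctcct
Epb42: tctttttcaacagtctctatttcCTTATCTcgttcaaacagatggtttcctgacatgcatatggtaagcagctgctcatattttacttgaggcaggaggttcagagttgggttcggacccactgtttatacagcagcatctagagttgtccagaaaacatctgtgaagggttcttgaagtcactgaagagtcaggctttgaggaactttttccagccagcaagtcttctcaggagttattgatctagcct
Cd79a: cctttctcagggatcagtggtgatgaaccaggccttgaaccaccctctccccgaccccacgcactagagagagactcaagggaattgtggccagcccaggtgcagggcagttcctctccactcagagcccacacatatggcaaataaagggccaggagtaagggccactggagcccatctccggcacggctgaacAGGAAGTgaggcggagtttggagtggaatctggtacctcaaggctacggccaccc
The ETS motif began 10 bases before the start of Lck, 49 before that of Il7r, 199 before that of Cd3d and 55 before that of Cd79a. The GATA motif began 210 bases before the start of Hbb-bs and 227 before that of Epb42.

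The lists held 51262 and 54831 peaks on these chromosomes in the wild-type libraries and 40118 and 42791 in the knockout libraries. The number of reads behind them is unknown, so an absent peak means that none was called, and the shorter knockout lists by themselves yield more lost than gained regions. Marker genes of the labelled cells were open in all 4 libraries. Within 20 kb of Cd4 there were 9, 12, 7 and 7 regions with a peak (wild type first, then knockout) and within 20 kb of Cd3e 11, 12, 8 and 6. All 4 of 4 Y-linked genes looked up had a peak in both wild-type lists and none in either knockout list. The knockout lists still held peaks on chromosome Y (22, 20, 10 and 9 in the same order), and X-linked Xist had 2, 2, 3 and 3. Genotype and sex of the animals therefore cannot be told apart, and only autosomes were used.

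Of 46495 regions in both wild-type libraries, 9729 were lost (20.9%), and of 34429 regions in both knockout libraries, 2989 were gained (8.68%). Strong regions were rarer, with 953 lost (2.05%) and 372 gained (1.08%). Lost regions were narrow, with a median width of 354 bp against 582 bp for common ones, and they sat low in the wild-type lists, at median percentiles of 26.0 and 30.4. Gained regions had a median width of 384 bp and, in the knockout lists, median percentiles of 31.1 and 34.0. With the best 40118 peaks of every list, the length of the shortest, 4549 regions were lost (12.8%) and 4545 gained (13.6%). Equal lengths bring these 2 counts close by construction, so they say nothing more about the surplus of lost regions in the full lists. Strong regions then numbered 364 lost (1.02%) and 545 gained (1.63%), the reverse of their order in the full lists. Technical replicates also disagreed: 11141 regions were in exactly 1 wild-type library, which is 19.3% of those in either, and 12887 in exactly 1 knockout library (27.2%).

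Among common regions the order of peak strength differed more between genotypes than between replicates. The −log10 q-values of the 2 wild-type libraries had a Spearman correlation of 0.955 across the 30206 regions and those of the 2 knockout libraries 0.870, against 0.737 to 0.774 for the pairs of different genotype. Regions of one library are not independent replicates, so these are descriptions. The median absolute difference in percentile was 4.58 points between the wild-type and 7.71 points between the knockout libraries, and the median absolute shift between the genotype means was 10.6 points. By the rule above 3757 common regions were lower (12.4%) and 3561 higher (11.8%) in the knockout.

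The locus of the knockout showed the 2 strongest lost regions of the genome. Ets1 lies at 32636241 to 32757820 on chromosome 9. The region 32910331 to 32911026, which starts 152.5 kb beyond the end of the gene, stood at percentiles 95.5 and 95.7 of the wild-type lists with fold enrichments of 7.82 and 7.77, and neither knockout list had a peak. The region 32925907 to 32926699 stood at percentiles 94.97 and 96.09, again without a knockout peak. They belong to a row of 6 neighbouring regions, from 32901119 to 32926699, of which all were lost.

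Next to that row lies the common region with the deepest fall of all. The region 32928294 to 32929031 stood at percentiles 97.4 and 96.8 among the common regions in the wild type and at 4.68 and 1.29 in the knockout, a shift of -94.1 points. Both knockout values were far below both wild-type values. In polarized cells it had a peak in 4 of 4 wild-type and 0 of 4 knockout libraries.

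Lost and lower regions also lay on both sides of this row. From 20 to 250 kb beyond the end of Ets1 there were peaks in 19 and 18 regions of the wild type and in 5 and 5 of the knockout. Of 18 regions in both wild-type libraries 13 were lost (72.2%, against 20.9% of all regions), and none was gained. Any of them inside the deleted DNA had to be lost. With equal lists 10 of 15 were lost. Of the 5 common regions of this stretch 3 were lower. The region 32815432 to 32815905, which starts 57.6 kb beyond the gene, fell from percentiles of 92.9 and 93.6 to 50.2 and 56.6, and the region 32938784 to 32939312, on the far side of the row, from 62.9 and 67.7 to 48.4 and 33.6. The region 32798161 to 32798610, which starts 40.3 kb beyond the gene, was lost from list percentiles of 72.2 and 77.7.

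Inside the gene the picture differed. Together with its flanks of 20 kb, Ets1 held 30 and 28 regions with a peak in the wild type and 16 and 20 in the knockout, with 8 of 26 lost and 2 gained. Of the 13 common regions there none was lower and 3 were higher. The region 32652072 to 32652662 rose from percentiles of 20.6 and 22.4 to 69.8 and 65.5, and 32668087 to 32668492 from 7.12 and 7.98 to 49.9 and 33.15. At 32695669 to 32696390 the percentiles were 18.5 and 25.6 in the wild type and 43.9 and 66.7 in the knockout, so the 2 knockout libraries lay far apart. Of the others, 32731553 to 32732326 stood at 73.1 and 81.1 against 84.1 and 73.9, where the genotypes overlapped.

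Fli1 (32422204 to 32543432), the neighbouring gene of another ETS factor, had peaks in 17, 18, 16 and 17 regions, with 2 lost and 2 gained, while 6 of its 13 common regions were lower and none higher (12.4% and 11.8% of all common regions). Arhgap32, which encodes a GTPase-activating protein, had 2 gained regions. Kcnj1, a potassium channel gene, had no lost or gained region and 1 higher one, Barx2, a homeobox gene, had 1 region in all 4 libraries, and Kcnj5 had none in any. Within 1 Mb of Ets1, 24 of 75 regions were lost (20.9% overall) and 7 of 50 gained (8.68% overall), and 13 of these lost regions are those of the stretch beyond the gene.

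**Figure D1:**
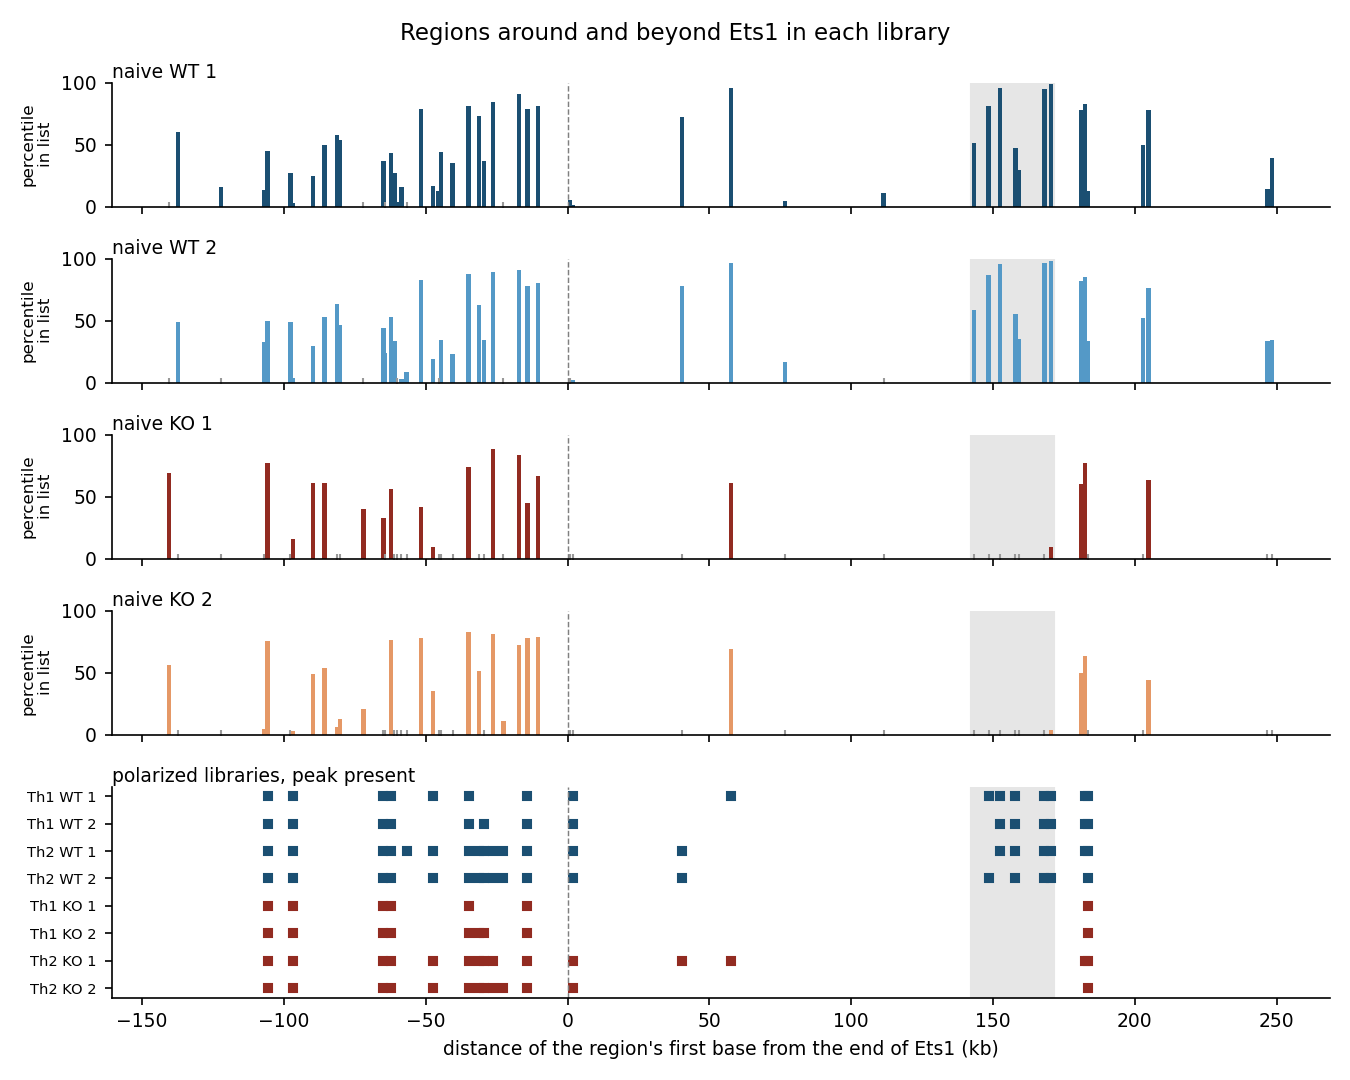
Regions around and beyond Ets1, by the distance of their first base from the end of the gene in kb; bars give the percentile of the region's best peak within each naive list, grey ticks a region without a peak, and squares a peak in a polarized library (blue wild type, red knockout). In the shaded stretch the wild-type lists held 6 lost regions and the region that fell by 94.1 points, and no polarized knockout library had a peak. Deleted sequence and closed chromatin cannot be told apart there.

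Promoter regions rose in rank relative to regions inside and between genes. Promoter regions (within 1 kb of a start in the table) were seldom lost, 435 of 9077 (4.79%), or gained, 227 of 8632 (2.63%). Regions inside genes were lost in 26.8% and intergenic ones in 24.7%, with 1483 of 12891 (11.5%) and 1214 of 11012 gained. Among the common regions, 1647 of 8244 promoter regions (19.98%) were higher in the knockout and 193 lower. Inside genes 2003 of 10838 (18.5%) were lower and 796 higher, and between genes 1511 of 9343 (16.2%) were lower and 786 higher. The median shift was 7.10 points for promoter regions, -4.85 inside genes and -3.32 between genes. Regions at the ends of genes without a start in the table, some of which may be promoters, shifted like promoters, by a median of 7.13 points, with 332 of 1781 higher and 50 lower. Since percentiles are relative, a rise of one class has to go with a fall of the others, and its cause was not tested. With equal lists promoters were lost in 2.23% and gained in 5.77%, and regions inside genes in 17.1% and 17.4%.

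**Figure D2:**
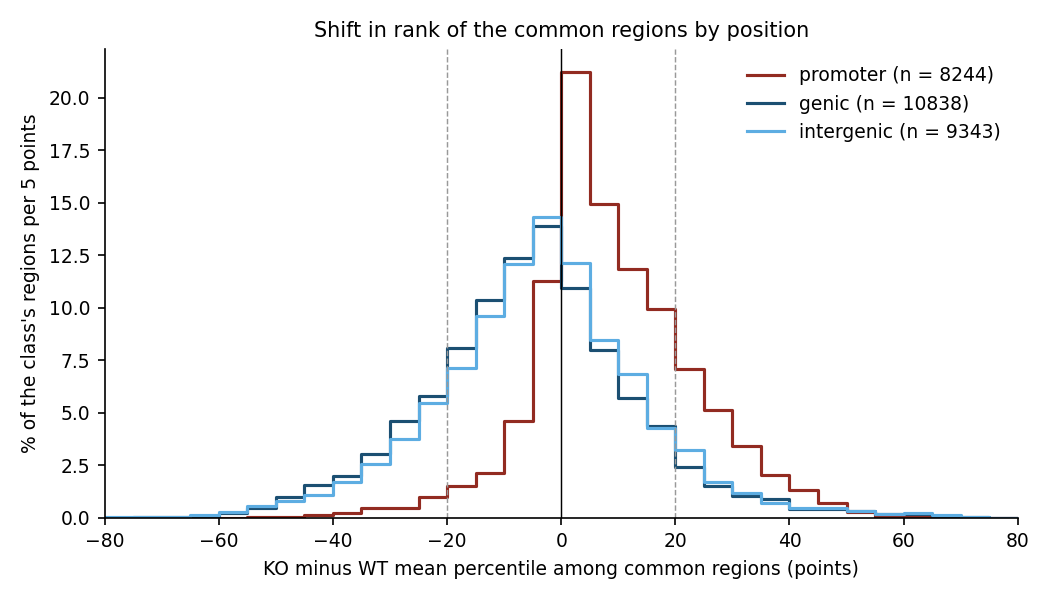
Share of common regions (y axis, % per 5 points) by the difference between knockout and wild-type mean percentile (x axis, points), for promoter regions, regions inside genes and intergenic regions (regions at gene ends without a start in the table are not drawn); dashed lines mark 20 points. The promoter curve lies to the right of 0, with a median of 7.10 points, and the other curves to its left.

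The 10 promoter regions with the deepest falls shifted by -60.9 to -44.7 points. They belong to Gzma, Zmynd11, Mob3a, Agbl1, Siah3, Nfatc2, Hk2, Commd4, Sephs1 and H2-Oa, and those with a well known role are described. The promoter of Gzma, a granule protease of cytotoxic cells, stood at percentiles of 68.7 and 69.8 among common regions in the wild type and at 14.9 and 1.80 in the knockout. That of Nfatc2, a transcription factor downstream of the T cell receptor, fell from 77.9 and 67.7 to 27.8 and 16.0, and that of Hk2, a hexokinase of glycolysis, from 56.2 and 57.4 to 4.84 and 12.3, while another region at the Hk2 start rose from 14.7 and 19.7 to 44.4 and 47.1. H2-Oa, a chain of an MHC class II accessory molecule, fell from 53.6 and 51.7 to 2.76 and 13.3. Groups did not overlap at any of these promoter regions, which were chosen for the size of their fall. Among list genes, the promoter of Prf1, which encodes perforin, stood at 63.2 and 63.9 against 13.8 and 37.8, and that of Il2ra, the IL-2 receptor alpha chain, at 86.2 and 89.0 against 67.9 and 60.8.

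The 10 largest rises were of 53.4 to 62.2 points, at Mrpl58, H2-Eb2, Fcho2, Gapt, Gm39270, Nckipsd, Gpr146, Fam227a, Sfpq and Nqo1. That of Mrpl58, a mitochondrial ribosome protein, stood at 14.1 and 3.56 in the wild type and at 73.8 and 68.4 in the knockout, and that of Fcho2, an endocytosis protein, at 20.5 and 16.4 against 78.9 and 73.0. Both had a peak in all 8 polarized libraries. H2-Eb2, an MHC class II gene, stood at 2.60 and 1.45 against 62.3 and 63.6, and Gapt, which encodes an adaptor of B and myeloid cells, at 1.01 and 6.01 against 64.7 and 57.3. Neither promoter had a peak in any of the 8 polarized libraries.

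Strong promoter regions were lost at 21 genes and gained at 14. At Fyn, a Src-family kinase of T cell receptor signalling, the region 39368669 to 39369093 on chromosome 10 stood at percentiles 50.4 and 63.9 of the wild-type lists, beside a common region at the same start that kept its rank (93.5 and 92.7 against 92.2 and 94.8). At Bbc3, which encodes the pro-apoptotic protein PUMA, the lost region stood at 51.2 and 57.7, and at Rgs19, a regulator of G protein signalling, at 56.4 and 54.8, and these genes too had a common promoter region that was not lower. A lost promoter region is thus 1 peak near a start and does not mean a closed promoter. Among the gained ones, Asns, asparagine synthetase, had percentiles of 58.5 and 62.3 in the knockout lists, and Uros, an enzyme of heme synthesis, 50.9 and 62.5. List genes described by their promoters, and Zap70, Epb42 and the marker genes without a lost or gained region, lie outside the rule for named genes and were chosen after their values were seen.

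T cell gene groups lost regions at shares near those of all regions, while their common regions were lower more often than those overall. The share lower was 20.95% near genes of T cell surface and identity, 21.7% near receptor signalling genes and 25% near genes of naive homing and quiescence. It was 12.4% of all common regions, but 18.5% inside genes, 16.2% between genes and 2.34% at promoters. Other lists ranged widely, with 25.8% near CD8 and NK cell markers, 18.6% near immediate activation genes and 2.44% near housekeeping genes. A high share was thus not particular to these T cell groups, and the part of position in it was not tested. Of the regions near 15 genes of T cell surface and identity 31 of 171 were lost (18.1%, against 20.9% overall) and 6 of 114 gained (5.26%, against 8.68%). Of their 105 common regions 22 were lower and 5 higher (12.4% and 11.8% overall), with a median shift of -8.14 points against 0.36 points over all common regions. Tox, a factor of T cell development, had peaks in 31, 35, 18 and 20 regions, with 6 lost (1 with equal lists), none gained and 4 lower. Cd6, an adhesion receptor, had 5 of 14 lost and 2 of 8 gained. Ikzf1, which encodes the lymphoid factor Ikaros, had 4 of 21 lost, 3 lower, and a gained promoter region at percentiles 57.1 and 48.8 of the knockout lists. Cd3d, a chain of the CD3 complex, had peaks in 9, 10, 6 and 5 regions, with 3 lost. Its promoter stood at 36.8 and 14.3 against 5.39 and 3.96, so the 2 wild-type libraries lay far apart.

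Receptor signalling genes varied widely around the same average. Of their 264 regions in both wild-type libraries 59 were lost (22.3%), and 36 of 166 common ones were lower against 16 higher. Fyn had peaks in 32 and 33 wild-type and 13 and 14 knockout regions, with 15 of 31 lost and 4 of 11 common ones lower. With equal lists 6 were lost. Plcg1, the phospholipase of this pathway, lost 4 of 14. Prkcq, which encodes protein kinase C theta, kept more regions, with 4 of 24 lost and 2 gained, but 8 of its 17 common regions were lower. Zap70, the kinase that binds the activated receptor, had 5 regions in each library and none lost, gained, lower or higher. At Lck, the kinase that starts the cascade, the region at 129573519 to 129573828 was lost from list percentiles of 46.9 and 40.2.

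Genes of naive T cell homing and quiescence had 51 of 244 regions lost (20.9%) and 6 of 165 gained (3.64%), with 38 of 152 common ones lower and 10 higher. Bach2, a repressor that holds T cells quiescent, had peaks in 47, 48, 29 and 34 regions, with 12 of 42 lost and 9 of 24 common ones lower. Foxp1, another factor of quiescence, had 66, 65, 48 and 55, with 9 of 59 lost, 3 gained and 8 of 37 lower. Foxo1, which drives homing and survival genes, had 17, 18, 10 and 10, with 6 of 15 lost. Lef1, a partner of beta-catenin, had 29, 34, 20 and 21, with 5 of 27 lost. With equal lists Bach2 lost 8 regions, Foxp1 4, and Foxo1 and Lef1 1 each. The promoter of Il7r, the receptor of the survival cytokine IL-7, stood at 56.7 and 73.1 against 21.7 and 47.3, without overlap. That of Slfn2, a gene of T cell quiescence, stood at 51.5 and 48.2 against 13.3 and 24.9.

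The partner and related factors of Ets1 differed among themselves. ETS family genes had 32 of 147 regions lost (21.8%) and 10 of 105 gained (9.52%), including Ets1 itself. Etv6, an ETS repressor, had 6 of 20 lost and 1 gained, and Erg, an ETS factor of stem cells and vessels, had 4 of 7 lost and 2 of 5 gained. Genes of RUNX factors, listed together with Cbfb and Cbfa2t3, had 18 of 54 lost (33.3%) and 7 of 35 gained. With equal lists 8 of 39 were lost (20.5%, against 12.8% of all regions) and 10 of 34 gained. Runx1 had peaks in 24, 26, 12 and 17 regions with 8 of 24 lost, and Runx2 lost 6 of 14. With equal lists Runx1 lost 4 and Runx2 2. All but 2 of the 7 gained regions of the list were at Cbfa2t3, a corepressor gene of blood progenitors and red cells, which had peaks in 4 and 6 wild-type and 14 and 9 knockout regions, with 5 gained and none lost.

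Helper cell genes had lost shares near the background in the full lists, apart from Th17 genes. Th1 genes had 15 of 76 lost (19.7%) and 3 of 61 gained, Th2 genes 12 of 64 (18.8%) and 2 of 48, and genes of regulatory and of follicular helper T cells 18 of 92 (19.6%) and 11 of 57 (19.3%) with none gained. With equal lists the follicular helper genes lost 1 of 42 (2.38%, against 12.8% overall) and gained 3 of 41. At Il12rb2, an IL-12 receptor chain, 1 promoter region was higher, at 29.9 and 39.5 against 72.3 and 51.4, while its neighbour at 67375172 to 67375652 on chromosome 6 fell from 57.2 and 50.8 to 20.9 and 1.06. Il18rap, an IL-18 receptor chain, had peaks in 4, 4, 1 and 1 regions, with 3 of 4 lost (1 with equal lists). Th17 genes had 15 of 47 lost (31.9%) and 6 of 30 gained. Of these losses 10 were at Rora, a nuclear receptor gene with peaks in 23, 27, 12 and 12 regions, and 3 of the gains were at Ccr6, a chemokine receptor gene that B cells also express. With equal lists Th17 genes lost 5 of 31 (16.1%, against 12.8% of all regions) and gained 6 of 27, and Rora lost 3.

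Among the remaining groups, immediate activation genes had 25 of 127 lost (19.7%) and only 1 of 89 gained. Tnfaip3, which encodes the NF-kB inhibitor A20, had peaks in 7, 8, 2 and 1 regions, with 5 of 6 lost. Survival genes of the BCL-2 family had 15 of 83 lost and 6 of 60 gained (10.0%). Bcl2l1, the gene of BCL-XL, gained 4 of 14 regions and lost 1, while Bbc3 lost 4 of 10 and Bcl2l11, the gene of BIM, 3 of 9. Interferon response genes had 12 of 66 lost and 8 of 59 gained (13.6%), cell cycle genes 12 of 81 and 6 of 68, chromatin architecture genes 11 of 52 (1 of 38 with equal lists) and 1 of 35, and housekeeping genes 8 of 59 and 1 of 42. CD8 and NK cell markers had 10 of 46 lost and 1 of 33 gained. Gzmb, a granule protease, had peaks in 2, 3, 0 and 1 regions with 2 of 2 lost.

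**Figure D3:**
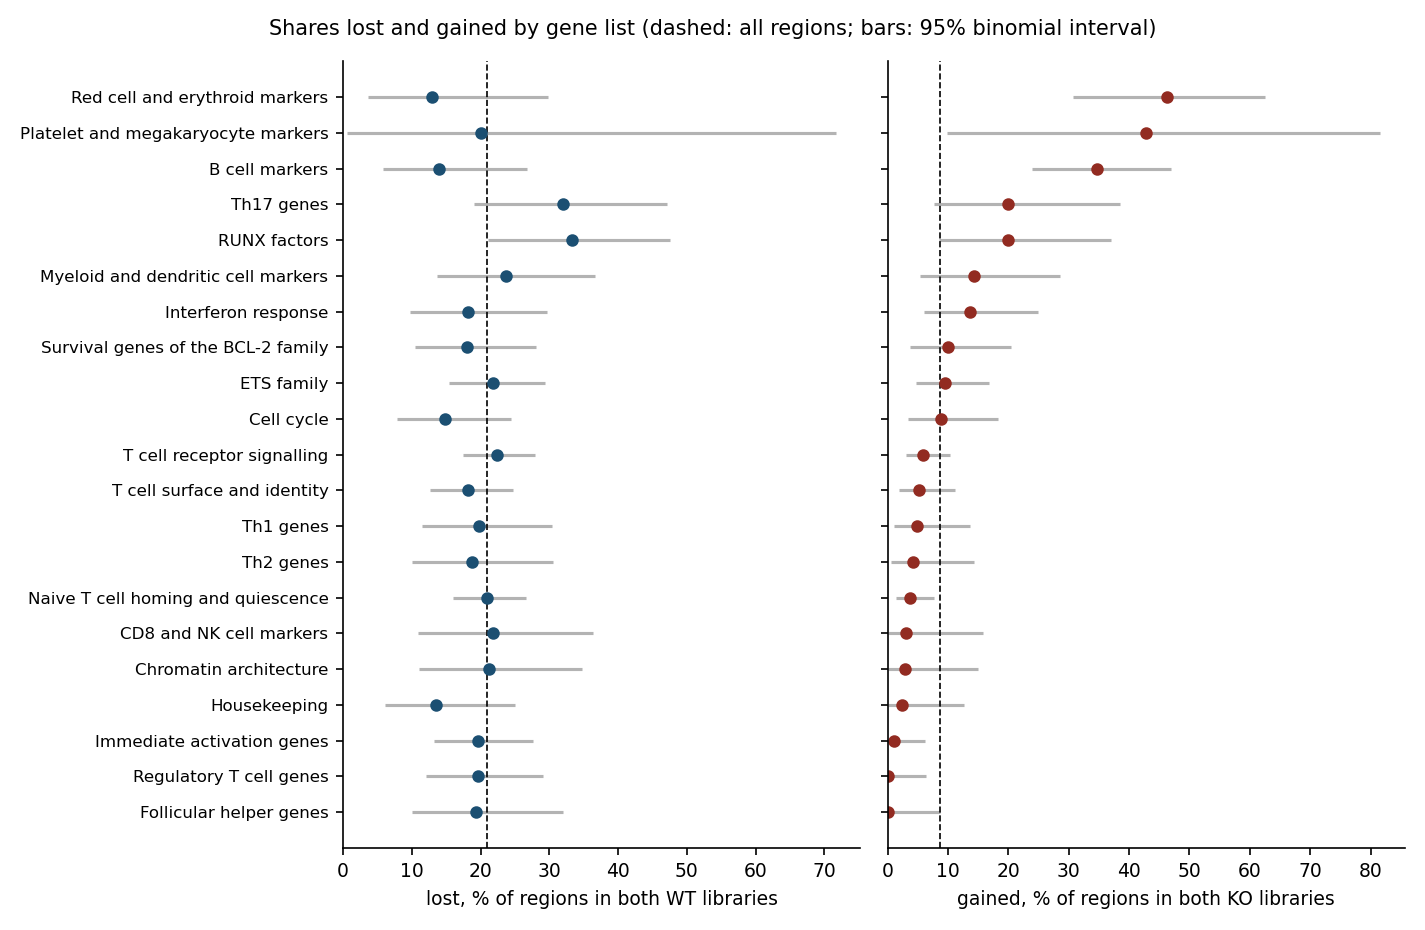
Share of regions lost (left, % of those in both wild-type libraries) and gained (right, % of those in both knockout libraries) for each gene list, with 95% exact binomial intervals that cover counting error only and dashed lines at 20.9% and 8.68%. The lost shares gather around the line, whereas red cell, platelet and B cell markers lie highest among the gained shares.

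Markers of B cells and red cells had gained shares well above the background. Regions near 16 B cell markers had 25 of 72 gained (34.7%, exact 95% binomial interval 23.9% to 46.9%, against 8.68% overall) and 7 of 50 lost (14.0%), and 13 of the 16 genes had at least 1 gained region. Summed over the list, the libraries had 61, 59, 82 and 92 regions with a peak, although the knockout lists were shorter. With equal lists 48.6% were gained. Of the 38 common regions 10 were higher and 5 lower. Such markers belong to cells that the selection was meant to remove, and in bulk libraries more cells of a type and more open chromatin per cell cannot be told apart.

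Single B cell genes varied, and not all had more regions in the knockout. Ms4a1, which encodes CD20, had peaks in 0, 0, 2 and 2 regions. Pax5, the factor of B cell identity, had 3, 1, 5 and 6, with 3 gained, and its gained promoter stood at percentiles 16.0 and 31.8 of the knockout lists. Cd79b, a chain of the B cell receptor, had 3, 3, 5 and 7, with 4 gained and 1 lost. Cd79a, the other chain, had similar counts, 6, 6, 5 and 6, but a gained promoter region at percentiles 41.1 and 45.4. Bank1, a scaffold of B cell signalling, had 5, 5, 8 and 8, Blk, a Src-family kinase of B cells, 1, 1, 4 and 4, and Ciita, the activator of MHC class II genes, 5, 7, 7 and 8, with 3 gained and 2 lost. The promoter of Blnk, an adaptor of the B cell receptor, stood at 0.65 and 1.63 in the wild type and at 54.9 and 44.9 in the knockout. Cr2 and H2-Ab1 had no lost or gained region, nor did Cd22. Cd74, the invariant chain of MHC class II, had 6, 5, 5 and 7, with 1 gained, 1 lost and 2 of 3 common regions lower.

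Red cell markers had the highest gained share. Of the regions near 14 genes 19 of 41 were gained (46.3%, exact interval 30.7% to 62.6%) and 4 of 31 lost (12.9%), with 33, 32, 45 and 56 regions with a peak. At the globin genes, Hbb-bh1, an embryonic beta-like globin gene, had peaks in 0, 0, 4 and 4 regions and Hbb-bs, an adult one, in 2, 2, 4 and 5. The gained promoter of Hbb-bs stood at percentiles 61.7 and 73.6 of the knockout lists. Hbb genes lie side by side, so their flanks share regions, and Hbb-bs and Hbb-bt are near-identical copies, so reads may be split between them. Slc4a1, the anion exchanger of the red cell membrane, had peaks in 0, 0, 3 and 5 regions, and the promoter of Epb42, a membrane skeleton gene, was gained at percentiles 60.2 and 69.7. Tal1, an erythroid and stem cell factor, lost 3 of 6 and gained 2 of 3 regions. Klf1, Epor and Tfrc had no lost or gained region and 1, 1 and 2 higher ones.

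Markers of other lineages moved in both directions. Myeloid and dendritic cell markers had 14 of 59 regions lost (23.7%) and 6 of 42 gained (14.3%), and their summed counts were 62, 67, 50 and 58. Lyz2 and S100a8, defining genes of myeloid cells, had peaks in 0, 0, 1 and 0 and in 0, 1, 0 and 0 regions. Itgam, an integrin of myeloid cells, lost 3 of 8, and Irf8, a factor of dendritic cells, 3 of 6. Other members gained regions: Adgre1, a macrophage receptor, had peaks in 1, 1, 3 and 3 regions, Csf1r, the receptor of a macrophage growth factor, in 0, 0, 1 and 2 and Cebpa, a myeloid factor, in 0, 0, 1 and 1, each with 1 gained. Clec9a, a dendritic cell receptor, gained 2 of 4. Platelet markers had 3 of 7 gained and 6, 7, 7 and 9 regions with a peak, and Gp9, a platelet glycoprotein, had 0, 1, 2 and 3 with 2 gained, while Pf4 and Ppbp, their defining genes, had no peak in any library. Thus markers of B and red cells moved with the genotype of these 2 samples, and their part in the other differences was not tested.

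**Figure D4:**
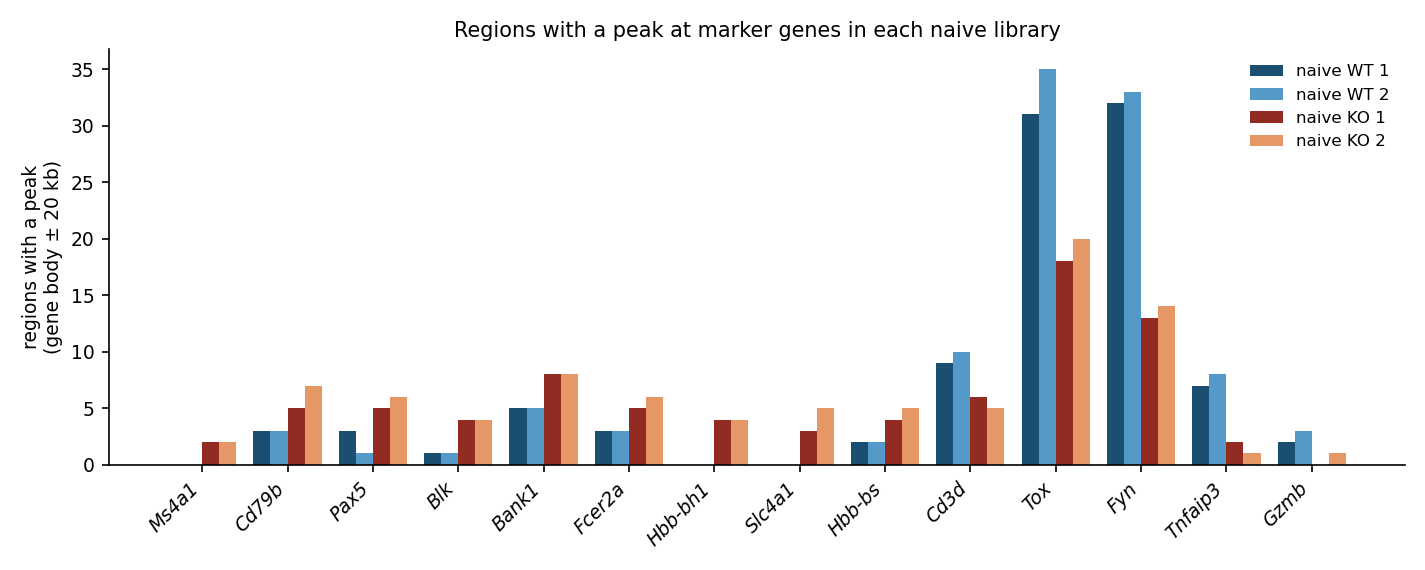
Number of regions with a peak within 20 kb of marker and T cell genes in each of the 4 naive libraries. Ms4a1, Hbb-bh1 and Slc4a1 have no bar in the wild-type libraries, while Tox, Fyn and Tnfaip3 have fewer regions in both knockout libraries.

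Loci of antigen receptor genes differed in how far they departed from the background, and they were chosen after their values were seen. Counts are of regions found in the naive cells. Over the variable segments of the T cell receptor alpha chain (chromosome 14, 52427967 to 53977678), the wild-type libraries had 56 and 60 regions with a peak and the knockout libraries 22 and 22. Of 52 regions in both wild-type libraries 25 were lost (48.1%), none was gained, and 8 of 15 common ones were lower. Over the beta chain segments the counts were 46, 48, 29 and 30, with 9 of 41 lost (22.0%, near the 20.9% of all regions) and 4 of 22 lower. The immunoglobulin heavy chain variable locus (chromosome 12, 113572929 to 116009954) had counts of 96, 104, 39 and 40, with 46 of 90 lost (51.1%) and 24 of 33 common ones lower. With equal lists 13 of 36 regions of the alpha chain and 29 of 69 of the heavy chain locus were lost, against 12.8% of all regions.

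The light chain locus went the other way. Over the kappa variable segments (chromosome 6, 67555636 to 70704177) the libraries had 2, 2, 17 and 16 regions with a peak, with 8 of 8 regions in both knockout libraries gained and 2 of 2 in both wild-type libraries lost. At the lambda constant genes the counts were 1, 1, 5 and 6. Segments of one locus are similar in sequence, so values of single segments are uncertain. In the 8 polarized libraries the kappa locus had at most 1 region with a peak and the alpha chain locus 3 or 4.

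**Figure D5:**
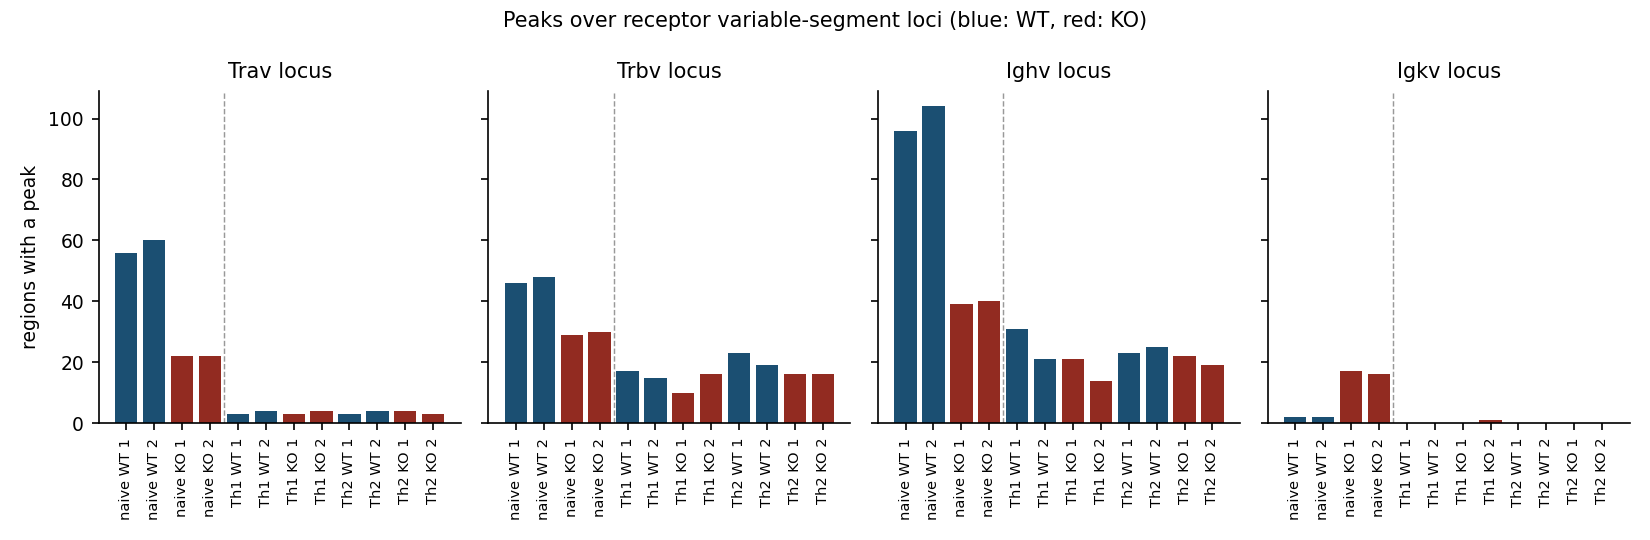
Number of naive regions with a peak over the variable-segment loci of T cell receptor alpha and beta and immunoglobulin heavy chains and over the kappa locus, in the 4 naive and 8 polarized libraries (blue wild type, red knockout). Naive knockout libraries have fewer regions than naive wild-type libraries in the first 3 panels and more in the last.

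Outside the lists, genes with the highest share of lost regions were of varied function. Syne1, a nuclear envelope protein, had peaks in 28, 28, 8 and 9 regions, with 18 of 26 lost (69.2%) and 4 strong lost regions, 1 of them at percentiles 90.9 and 93.8 of the wild-type lists. Zfp618, a zinc finger gene, had peaks in 8, 9, 0 and 1 regions, with 7 of 8 lost, Pitpnm2, a phosphatidylinositol transfer protein, lost 9 of 14, and Smarca2, an ATPase of the SWI/SNF chromatin remodeller, 7 of 11. With equal lists Syne1 lost 9, Pitpnm2 7 and Smarca2 4. Genes with few regions reach extreme shares more easily, and no gene was tested against the background.

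Gained shares were highest at Lipc, hepatic lipase, with 5 of 5 regions, and at Ttc39a, with 6 of 7, Tom1l1, an adaptor of Src kinases, with 4 of 5, and Gda, guanine deaminase, with 4 of 5 and a strong gained promoter. Themis2, a signalling gene of B and myeloid cells, had peaks in 5, 5, 7 and 9 regions, with 4 of 6 gained. Among the 12 strongest gained regions, 1 lay 303430 bases from Runx1, at percentiles 79.9 and 76.0. The strongest, at 113968841 to 113969334 on chromosome 9 within Fbxl2 and Ubp1, stood at 82.5 and 84.0.

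Motifs were counted in the promoter table, since no genome of the build was used here, so regions away from promoters are not covered. Of 20062 windows of 300 bases, from 250 before to 50 after a start, 9.09% held AGGAAGT on either strand. This motif and CCGGAAGT share the core GGAAGT but differ in the base before it, so 1 core cannot match both. Of windows under a lost region 20 of 125 held AGGAAGT (16.0%), of those under a lower region 21 of 95 (22.1%), under a higher one 117 of 1968 (5.95%) and under a gained one 13 of 159 (8.18%). Common regions that were neither lower nor higher had 9.52%. The promoters with this motif in the lost or lower groups included Lck, Il7r and Cd3d, printed above, and Il2ra, Prf1 and Slfn2.

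CCGGAAGT, the form common at housekeeping promoters, behaved differently. It was in 5.28% of all windows and in 10.97% of those under unmoved common regions, 9.15% of those under higher regions, 3.20% under lost, 3.16% under lower and 1.26% under gained regions. AGATAAG was in 2.59% of all windows, in 11 of 159 under gained regions (6.92%), including those of Hbb-bs, Epb42 and Trim10, in 4.80% under lost, 1.05% under lower and 1.52% under unmoved common ones. TGTGGTT, the RUNX motif, was in 4.77% of all windows and in 4.80% under lost and 1.89% under gained regions. GGGCGG, bound by KLF and SP factors, was in 73.6% of windows under higher and 38.9% under lower regions. Base composition differs between these sets: the median GC content was 54.0% under lost, 53.3% under lower, 61.0% under gained and 65.3% under higher regions. A match is only a match of letters, and binding was not measured.

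Most regions lost or gained in the naive cells had no peak in any given polarized library. Of the lost regions 10.7% to 19.1% had a peak in each of the 8 libraries, and of the gained ones 10.0% to 15.7%. Of the common ones, which were wider and higher in their lists, 59.0% to 68.0% had one. These shares count libraries of either genotype and do not show whether a naive difference was found again. In the knockout libraries alone, 13.0% to 18.1% of the lost regions had a peak. Lower regions had 28.5% to 38.3% and higher regions 74.2% to 79.0%. Promoters were seen again more often, with 31.3% to 45.8% of the gained ones. Of the 9729 lost regions, 9 were present in each of the 4 polarized wild-type libraries and in no polarized knockout one. The same pattern was seen at 22 of the 30206 common regions, a similar share. Of the 9 lost regions 2 lay beyond Ets1, at 32915702 to 32916110 and 32925907 to 32926699. At these 2, deleted sequence and closed chromatin cannot be told apart. The others lay in or near Ssx2ip, Nfia, Slc25a26, Endod1, Pxylp1, Slc39a4 and Dgkg. Of the 2989 gained regions 1 had a peak in all 4 polarized knockout and no polarized wild-type library. The same held for 12 of the 30206 common ones. Polarization itself opens and closes regions, so a region absent after culture says nothing about the genotype. With lists of equal length the order of lost and gained shares turned, with medians of 11.8% and 21.2%.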

How the data were processed

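Naive CD4+ T cells were profiled in 4 ATAC-seq libraries. Per the submitters' processing notes BWA, Picard, MACS2 and GRCm38 were used, without versions or settings. Each deposited list has 9 columns per peak, including a score, a fold enrichment (ratio) and 2 significance columns, −log10 p-value and −log10 q-value. Lists were made per library by the authors, and values were used only to rank peaks within a list.

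Peaks overlapping by at least 1 bp were merged, and regions were assigned to genes of the RefSeq table (GRCm38.p6) by gene body with 20 kb on each side. Starts were at hand for 16456 of 20661 protein-coding genes, and regions at the ends of the others formed a separate class. Intervals cover counting error only. The merging and calls were tested on simulated lists. The members and gene lists were chosen with earlier results of these data known. Named genes are those within 1 Mb of Ets1, list members with most lost or gained regions, genes with the highest shares (of at least 8 wild-type or 5 knockout regions), and those of the 12 strongest regions and 10 largest promoter shifts each way. Alternatives were equal lists, a q-value of 0.01, coverage of 50% of a region, merging within 200 bp or over 12 lists, chromosome X, ranks by fold enrichment, other rank steps, gene flanks of 5 kb, the nearest start within 100 kb and each library left out. Tools were matplotlib 3.10.9 for figures, scipy 1.17.1 for intervals, and pandas 2.3.3 with numpy 2.4.6 under Python 3.11.15.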

Additional observations from a re-analysis of the deposited data

How the results depend on the processing

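No paired analysis was possible because the 2 libraries of a genotype are technical replicates of 1 sample and no test was run. With equal lists, lost regions fell to 4549, strong lost regions to 364 and gained regions rose to 4545, by the construction of equal lengths. Strong gained regions numbered 545 there and thus outnumbered the strong lost ones. Strong lost regions rose to 1541 where peaks had to cover 50% of a region. With 10 points in place of 20, 6881 regions were lower and 7057 higher, and with 30 points 1688 and 1509. Leaving out 1 library at a time gave 12145 to 15124 lost, 3472 to 5668 gained, 1220 to 1866 strong lost and 441 to 840 strong gained regions. Lost regions numbered 15124 without wild-type replicate 1. Strong lost regions numbered 1709 without wild-type replicate 1 and 1866 without knockout replicate 2. Without knockout replicate 1 or 2, gained regions numbered 5668 and 4944, and strong gained regions 840 and 676. The share gained was 48.6% for B cell markers with equal lists and 32.8% to 45.2% in the remaining alternatives, and 41.7% to 60% for red cell markers. The median share of lost regions with a peak in a polarized library was 16.1% and that of gained regions 13.4%. With equal lists over the 12 libraries these were 11.8% and 21.2%, so their order turned. The cause was not tested. Other alternatives for the counts of lost, gained, lower and higher regions stayed within 1.5 times. Shares lost of these lists were lower with equal lists, 8.63% for T cell identity, 13.1% for receptor signalling, 11.4% for naive genes, 2.38% for follicular helper and 2.63% for chromatin architecture genes, beside 12.8% of all regions. Peak lists without read counts limit the precision of every value here, and the spread between animals is unknown.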
